A study of Mus musculus with 6 samples.

Results

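The mRNAs of 10 lymphocyte genes were followed in alveolar type II cell isolates of Stat3Δ/Δ mice and their littermates: the CD3 chains Cd3d, Cd3e and Cd3g, the coreceptors Cd4 and Cd8a, the surface proteins Cd2 and Cd5, the kinase Lck, and the cytotoxic granule genes Nkg7 and Gzma. A member was any probe set annotated to one of these genes and to no other gene. The rule found 14 probe sets of 9 genes among 45037 tested probe sets, with 5 probe sets for Cd8a, 2 for Cd4 and 1 for each of the other genes. Lck had none that names it alone, so its mRNA was not analysed here.

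The Stat3Δ/Δ mice carried SP-C-rtTA, (tetO)7CMV-Cre and Stat3flx/flx. Doxycycline given to the dams in the food, through gestation and the first weeks of life, let rtTA, made under the surfactant protein C promoter, switch on Cre, which removed exon 21 of Stat3 in the respiratory epithelium. The controls were non-deleted littermates with Stat3flx/flx and only one of the 2 transgenes by the study's methods, although one label field names the triple transgenic line for them too. The mice were 8 weeks old and matched for sex and age. Cells isolated with collagenase and differential plating were pooled from 3 mice at a time, giving 3 Stat3Δ/Δ and 3 control pools, each on an Affymetrix MOE430 array of its own. By the stain named in the methods most cells were type II cells, and macrophages were the main other cell. Of 4 Stat3 probe sets, the brightest gave signals of 26284.7, 20127.5 and 25650.1 in Stat3Δ/Δ pools, against 49488.8, 41544.1 and 35080.1 in control pools, without overlap between the groups (log2 fold change -0.71, adjusted p = 0.532, limma). The other three gave -0.80 without overlap, and -0.046 and 0.60 with groups that overlapped.

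T lymphocytes read antigen through a clonal receptor that signals only with the CD3 chains, and CD4 or CD8 binds the MHC molecule beside it. Natural killer (NK) cells lack this receptor complex and kill through granules of granzymes and perforin, a machinery that cytotoxic T cells share. Both cell types patrol the lung, and both are leukocytes, in which the surfactant protein C promoter is not known to be active. Signals of these genes in a type II cell isolate therefore bear on which cells were in the tube as well as on what each cell made, and in bulk RNA fewer cells of a type and less RNA per cell cannot be told apart.

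The arrays were not alike in the members, in which 2 control arrays stood at opposite ends. Control pool 2 was the highest of the 6 arrays in 5 of the 9 member genes by their brightest probe sets, and control pool 1 was the lowest in 7 of 9. Over all 18193 genes these shares were 17.5% and 14.1%. Pan-leukocyte genes, listed as 12 genes such as Ptprc and Coro1a, all measured, had a summed signal of 125880.6, 185537.2 and 159873.5 on the Stat3Δ/Δ arrays and 79789.5, 151206.1 and 143248.0 on the control arrays. Control pool 1 was the lowest array in 10 of these 12 genes and control pool 2 was in the middle of the range of the sum. Type II cell markers were bright on every array, with a sum over 9 measured genes between 615566.0 and 817870.5 in Stat3Δ/Δ cells and between 734072.1 and 820428.8 in control cells. RNA integrity was read from the Actb control probe sets, whose 3' over 5' log2 ratio was 0.42, 0.34 and 0.42 in Stat3Δ/Δ pools and 0.81, 0.64 and 0.47 in control pools, so the first 2 control arrays had the highest ratios. The sample titles hold a leading number of unstated meaning, which control pools 1 and 2 share, Stat3Δ/Δ pools 1 and 2 share with control pool 3, and Stat3Δ/Δ pool 3 has alone. The 3 arrays of Stat3Δ/Δ pools 1 and 2 and control pool 3 are called the shared-number arrays here. The part of these differences in the results below was not tested, and the fold changes of the members are given, singly or as a range, with and without control pool 2.

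Values are deposited linear signals, and fold changes are on the log2(signal + 70.0) scale after quantile normalization, Stat3Δ/Δ minus control, which understates the change of dim probe sets. As a level for mRNAs that these cells should not make, 44 probe sets of olfactory receptor genes had mean signals with a median of 95.7 and a 95th percentile of 256.7. Mean signals of 12 of the 14 member probe sets lay above that percentile. Averaged over the arrays, most of these lymphocyte transcripts were thus measurable. The 2 below it were Cd4 1427779_a_at and Cd8a 1440811_x_at, each of which passed it on 1 array. Cd8a 1451673_at and 1425335_at passed it on 4 arrays each, and their means take in 4710.5 and 4010.7 in control pool 2. Cd4 1419696_at and Cd8a 1444078_at passed it on 5 arrays, and the remaining probe sets on all 6.

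The 3 CD3 chains had no fold change that exceeded the spread between pools, and all 3 were highest in control pool 2. Cd3d encodes the delta chain, which pairs with epsilon in the receptor complex. Its probe set (1422828_at) gave signals of 1264.7, 2133.1 and 2691.5 in Stat3Δ/Δ pools, against 427.8, 11502.4 and 1671.1 in control pools. The control pools thus held both the highest and the lowest array, and control pool 2 was 26.9 times control pool 1 and 4.27 times the highest other array. The log2 signal averaged 10.96 ± 0.58 in Stat3Δ/Δ pools and 11.12 ± 2.19 in control pools (SD, n = 3 each), a log2 fold change of -0.16 (standard error, SE, 0.94, adjusted p = 0.979, limma over all probe sets). Without control pool 2 it was 1.01 (SE 0.54, adjusted p = 0.807 by limma), and without control pool 1 it was -1.13, so that the sign turned with the control array left out.

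Cd3e encodes the epsilon chain, which occurs in both the gamma-epsilon and the delta-epsilon pair. Its signals (1422105_at) were 837.0, 2260.7 and 2358.6 in Stat3Δ/Δ pools, against 767.3, 6940.8 and 2280.5 in control pools. Stat3Δ/Δ pool 1 and control pool 1 were low together here, Stat3Δ/Δ pools 2 and 3 lay beside control pool 3, and control pool 2 stood above them all. The log2 fold change was -0.55 (SE 0.72, adjusted p = 0.864 by limma), 0.20 without control pool 2 (adjusted p = 0.969) and -1.24 without control pool 1.

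Cd3g encodes the gamma chain. Its signals (1419178_at) were 1172.4, 919.5 and 785.3 in Stat3Δ/Δ pools, against 289.1, 3473.5 and 828.5 in control pools. The Stat3Δ/Δ pools were close to each other, with log2 signals of 9.97 ± 0.23, while the control pools averaged 10.07 ± 1.58 (SD, n = 3 each). The log2 fold change was -0.10 (SE 0.68, adjusted p = 0.982 by limma), 0.75 without control pool 2 (SE 0.39, adjusted p = 0.807) and -0.78 without control pool 1.

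The 3 CD3 genes are neighbours on mouse chromosome 9, and Cd3g and Cd3d are read away from each other from starts 1355 bases apart. The 250 bases before their starts are shown, from RefSeq on GRCm38.p6, read 5′ to 3′ on the gene's strand. They lie at chr9:44981536-44981785 (Cd3d, plus strand), chr9:44980432-44980681 (Cd3g, minus strand) and chr9:45009612-45009861 (Cd3e, minus strand). Capitals mark matches, on either strand, to TTCNNNGAA, the palindromic core bound by STAT factors, to AGGAAG or its complement CTTCCT, an ETS core, and to TGTGGT or its complement ACCACA, a RUNX core.
Cd3d: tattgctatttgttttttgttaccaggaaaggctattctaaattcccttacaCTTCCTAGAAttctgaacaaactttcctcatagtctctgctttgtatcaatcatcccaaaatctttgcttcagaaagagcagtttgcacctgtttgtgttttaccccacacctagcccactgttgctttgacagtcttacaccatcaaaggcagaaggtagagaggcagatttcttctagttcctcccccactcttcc
Cd3g: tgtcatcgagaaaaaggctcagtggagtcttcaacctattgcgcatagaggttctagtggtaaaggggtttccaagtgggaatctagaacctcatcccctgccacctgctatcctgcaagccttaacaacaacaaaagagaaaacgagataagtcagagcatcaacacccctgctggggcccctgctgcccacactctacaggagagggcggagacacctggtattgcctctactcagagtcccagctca
Cd3e: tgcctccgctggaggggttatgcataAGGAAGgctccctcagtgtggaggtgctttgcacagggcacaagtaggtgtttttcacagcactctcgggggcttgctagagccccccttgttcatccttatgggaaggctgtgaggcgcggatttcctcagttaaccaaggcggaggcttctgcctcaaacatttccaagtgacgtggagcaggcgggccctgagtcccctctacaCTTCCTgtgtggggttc
Cd3d held 1 STAT match that overlaps 1 ETS match, Cd3e held 2 ETS matches and Cd3g none of the 3 motifs. Windows of the same length hold the STAT letters in 7.02% of 32851 RefSeq promoters, the ETS letters in 29.5% and the RUNX letters in 14.0%. RefSeq promoters were found for 8 of the 10 genes, Lck with 2 of them and Cd2 and Cd4 with none, and of these 9 windows 2 held a STAT match, 6 an ETS match and 3 a RUNX match.

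**Figure D1:**
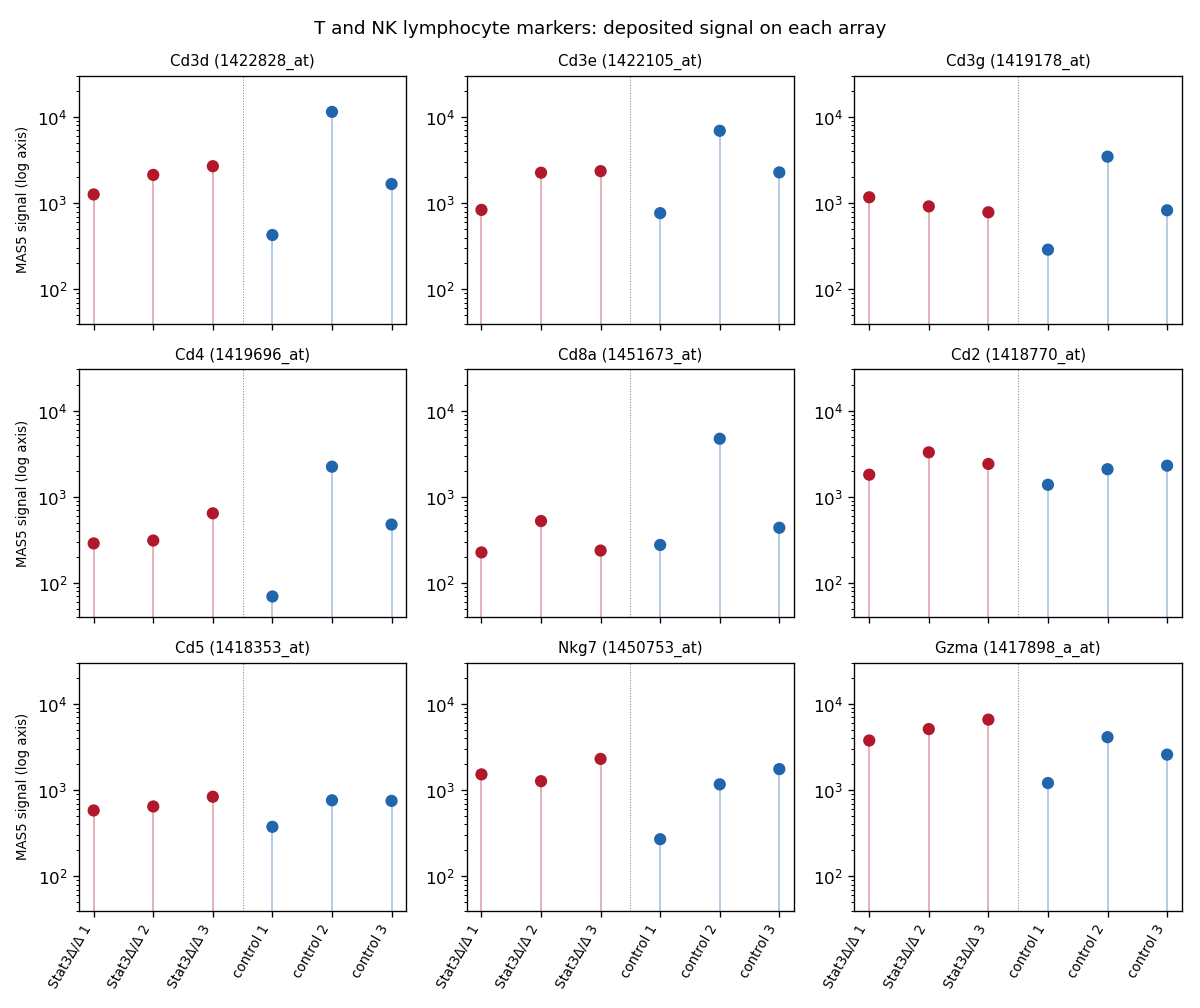
Deposited MAS5 signal (log axis) of the brightest probe set of each of the 9 measured genes on each array, with the 3 Stat3Δ/Δ pools in red and the 3 control pools in blue; each point is 1 array. Control pool 2 stands above the other 5 arrays for Cd3d, Cd3e, Cd3g, Cd4 and Cd8a, and lies within the range of the others for Cd2, Cd5, Nkg7 and Gzma.

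Cd8a and the brighter Cd4 probe set were also highest in control pool 2. The gap to the highest other array was 3.07 log2 units for Cd8a, against 2.01 for Cd3d, while the gap to the mean of the other two control pools was 3.45 for Cd8a and 3.54 for Cd3d. Cd4 marks helper T cells. The brighter of its 2 probe sets (1419696_at) gave signals of 287.0, 310.2 and 641.6 in Stat3Δ/Δ pools, against 69.5, 2231.0 and 475.3 in control pools. The ratio of control pool 2 to control pool 1 was 32.1, and pool 1 was the only array under the olfactory receptor level. The log2 fold change was -0.36 (SE 0.86, adjusted p = 0.937 by limma), 0.65 without control pool 2 (adjusted p = 0.880) and -1.28 without control pool 1. The dimmer Cd4 probe set (1427779_a_at) gave signals of 109.3, 153.7 and 298.1 in Stat3Δ/Δ pools, against 44.2, 208.8 and 32.3 in control pools. On it the highest array was Stat3Δ/Δ pool 3 and the log2 fold change was 0.61 (SE 0.47, adjusted p = 0.752 by limma), or 1.09 without control pool 2 (adjusted p = 0.771), so over all arrays the 2 Cd4 probe sets differed in the sign of the change and in whether control pool 2 stood apart.

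Cd8a encodes the alpha chain of CD8, which marks cytotoxic T cells and is also made by some dendritic cells. Its brightest probe set (1451673_at) gave signals of 225.7, 522.4 and 237.3 in Stat3Δ/Δ pools, against 275.6, 4710.5 and 436.4 in control pools. Control pool 2 was 9.02 times the highest other array, and the remaining 5 arrays overlapped. The log2 signal averaged 8.48 ± 0.58 in Stat3Δ/Δ pools and 9.91 ± 1.997 in control pools (SD, n = 3 each), and the log2 fold change of -1.44 (SE 0.87, adjusted p = 0.699 by limma) became -0.29 without control pool 2 (SE 0.40, adjusted p = 0.924) and -2.06 without control pool 1. A second probe set (1425335_at) repeated this, with signals of 98.5, 304.2 and 269.7 in Stat3Δ/Δ pools, against 187.7, 4010.7 and 313.8 in control pools. Of the other three, 1444078_at had 2705.7 in control pool 2 and between 247.4 and 430.2 elsewhere, and 1440811_x_at had 856.6 in control pool 2 and between 14.1 and 129.6 elsewhere. On 1440164_x_at control pool 2 was highest by less, with 530.4, 756.2 and 958.8 in Stat3Δ/Δ pools, against 483.0, 1248.7 and 851.7 in control pools. Probe sets with this suffix can share probes with other sequences. That holds for 1440811_x_at too and, below, for the brightest probe sets of Dntt, Ccr9, Trbv1, Myb and Rrm2. All 5 Cd8a probe sets had a negative log2 fold change, between -1.504 and -0.23, and none passed the test. Without control pool 2 they lay between -0.49 and 0.044.

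Cd2 and Cd5 did not follow the CD3 chains into control pool 2. CD2 is an adhesion receptor of T and NK cells, and its signals (1418770_at) were 1802.2, 3277.6 and 2401.1 in Stat3Δ/Δ pools, against 1376.6, 2086.9 and 2294.1 in control pools. All arrays lay within a narrow range, control pool 1 was the lowest and Stat3Δ/Δ pool 2 the highest. The log2 fold change was 0.32 (SE 0.31, adjusted p = 0.811 by limma) and 0.38 without control pool 2. CD5 dampens receptor signalling on T cells and on some B cells, and its signals (1418353_at) were 581.9, 647.7 and 839.9 in Stat3Δ/Δ pools, against 375.9, 764.1 and 751.6 in control pools. Here control pools 2 and 3 were nearly equal, and the log2 fold change was 0.05 (SE 0.30, adjusted p = 0.979 by limma). It was 0.20 without control pool 2 and -0.17 without control pool 1.

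Gzma and Nkg7, the granule genes, had the largest positive changes of the 9 genes by their brightest probe sets, and neither passed the FDR. Gzma encodes granzyme A, a serine protease of cytotoxic granules. Its signals (1417898_a_at) were 3776.5, 5125.6 and 6599.9 in Stat3Δ/Δ pools, against 1211.9, 4128.3 and 2589.9 in control pools. The groups overlapped only in that control pool 2 lay above Stat3Δ/Δ pool 1. Log2 signals averaged 12.32 ± 0.42 in Stat3Δ/Δ pools and 11.28 ± 0.80 in control pools (SD, n = 3 each), and control pool 1 was the lowest array. The log2 fold change was 1.04 (SE 0.43, adjusted p = 0.576 by limma). Without control pool 2 it was 1.43 (SE 0.41, adjusted p = 0.768), without control pool 1 it was 0.62 (adjusted p = 0.873), and among the shared-number arrays it was 0.76.

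Nkg7 encodes a granule membrane protein of NK and cytotoxic T cells. Its signals (1450753_at) were 1526.3, 1273.9 and 2308.0 in Stat3Δ/Δ pools, against 269.9, 1169.2 and 1759.5 in control pools. Control pool 1 was far below the other 5 arrays, which overlapped. The log2 fold change was 0.84 (SE 0.55, adjusted p = 0.717 by limma), 1.02 without control pool 2 and 0.20 without control pool 1 (adjusted p = 0.968), and it was -0.32 among the shared-number arrays, so its direction rested on which control arrays were used.

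The 250 bases before the starts of the granule genes are shown too, from RefSeq on GRCm38.p6, with capitals as above. They lie at chr7:43436888-43437137 (Nkg7, plus strand) and chr13:113100982-113101231 (Gzma, minus strand).
Nkg7: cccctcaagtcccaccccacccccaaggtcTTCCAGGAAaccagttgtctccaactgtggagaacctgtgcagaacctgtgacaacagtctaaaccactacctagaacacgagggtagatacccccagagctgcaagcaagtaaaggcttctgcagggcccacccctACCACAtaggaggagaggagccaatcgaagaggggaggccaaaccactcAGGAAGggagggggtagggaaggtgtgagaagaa
Gzma: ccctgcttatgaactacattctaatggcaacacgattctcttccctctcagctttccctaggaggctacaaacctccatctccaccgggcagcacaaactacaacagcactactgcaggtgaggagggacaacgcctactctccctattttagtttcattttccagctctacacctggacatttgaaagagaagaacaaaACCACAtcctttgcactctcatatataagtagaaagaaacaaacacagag
Nkg7 held a match to each of the 3 motifs and Gzma 1 RUNX match. Cd8a held none of them in its window. A match is a description of letters only, and its relation to the signals was not tested.

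A call required a fold of 1.5 or more with p at most 0.05 and an FDR within 10%. By limma 0 of the 14 member probe sets were called in either direction, against 0.00222% of all 45037 probe sets called higher and 0.0% called lower. Leaving out the FDR, 1 member probe set, Gzma, was higher in Stat3Δ/Δ cells (7.14% of 14, background 4.14%) and none was lower (background 4.22%). Without control pool 2, Gzma and the dim Cd4 probe set were higher (background 3.26%) and none was lower (background 3.16%). Without control pool 1, none was higher (background 2.92%) and 1 was lower, Cd8a 1440811_x_at (background 3.17%). On no member probe set did all Stat3Δ/Δ arrays lie above all control arrays (background 5.99%) or below them (background 7.66%). The median log2 fold change over the 9 genes was -0.10, against -0.085 over all genes. It was 0.65 without control pool 2 and -0.78 without control pool 1, while the median over all genes was -0.078 and -0.055.

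The members varied more among control pools than among Stat3Δ/Δ pools. The SD of log2 signals was greater among control pools than among Stat3Δ/Δ pools on 13 of 14 member probe sets, against 50.2% of all probe sets, and Cd2 was the exception. Control pool 2 was the highest array on 9 of 14 (background 15.7%) and exceeded every other array by at least 1 log2 unit on 8 of 14 (background 0.646%), a measure chosen after the values were seen. Among 18193 genes ranked by how far control pool 2 exceeded the highest other array on the log2(signal + 70.0) scale, Cd8a stood at 5, Cd3d at 14, Cd4 at 25, Cd3g at 32 and Cd3e at 34. The other members stood far down that order, with Cd5 at 4791, Cd2 at 12776, Gzma at 13418 and Nkg7 at 15575. These ranks share 1 array and describe it.

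Among the shared-number arrays neither of the outlying control arrays takes part. The median log2 fold change of the 9 genes was -0.27 there, against -0.049 over all genes. Single genes lay between -0.73 for Cd3e and 0.76 for Gzma, and Cd3g, Cd5 and Nkg7 had the opposite sign to that over all arrays, with 0.33, -0.27 and -0.32.

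**Figure D2:**
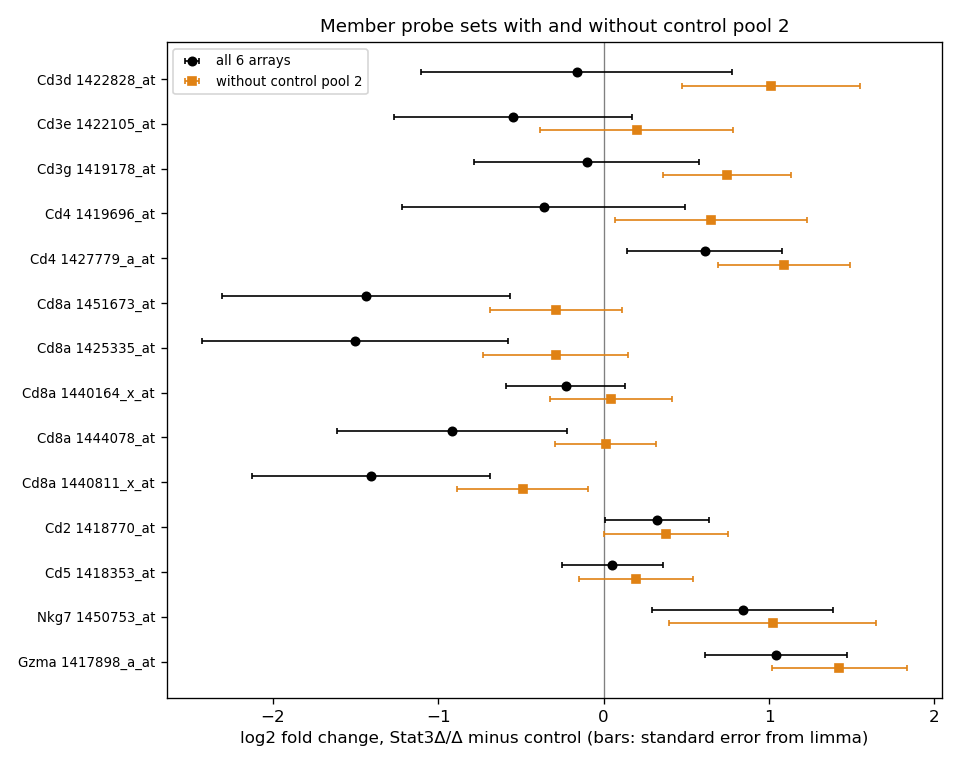
Log2 fold change (Stat3Δ/Δ minus control) of the 14 member probe sets from limma, with bars for the standard error, over all 6 arrays (black circles) and without control pool 2 (orange squares). The CD3 chains and Cd4 1419696_at lie below 0 with all arrays and above 0 without control pool 2, and the Cd8a probe sets move from between -1.504 and -0.23 to between -0.49 and 0.044.

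Partners of the T cell receptor had no called change, and a part of them stood apart in control pool 2. Of 30 listed genes 27 had a probe set of their own, and by limma 0 passed the FDR, while 3 were higher and 1 was lower without it (2.19% and 5.56% of all genes). Their median log2 fold change was -0.027, with 13 above 0 and 14 below. It was 0.72 without control pool 2, when 19 of 27 lay above 0 and 7 were called higher without the FDR (2.09% of all genes). Without control pool 1 it was -0.47, when 1 was called higher and 2 lower (1.91% and 3.86% of all genes). Among the shared-number arrays it was 0.0032. The highest array was control pool 2 in 17 of 27 genes and by at least 1 log2 unit in 9 (17.5% and 0.704% of all genes). The highest fold changes belonged to Ctla4 with 1.32, Icos with 1.11 and Il7r with 0.97, which encode an inhibitory receptor, a costimulatory receptor and the receptor of interleukin 7. The lowest belonged to Themis with -1.18, Ubash3a with -0.80 and Cd8b1, the beta chain of CD8, with -0.71. Among the shared-number arrays Ctla4 had 0.89, Il7r 0.0032, Themis -0.44 and Ubash3a -0.45, and without control pool 2 Ubash3a had -0.37, while without control pool 1 Ctla4 had 0.60. Cd8b1 gave signals of 379.1, 469.6 and 367.0 in Stat3Δ/Δ pools, against 44.1, 6394.0 and 462.7 in control pools. It was highest in control pool 2 as Cd8a was and, unlike Cd8a, far below the other arrays in control pool 1, and its fold change was 0.87 without control pool 2 and -1.98 without control pool 1. Icos differed from this: its signals were 2491.9, 2333.8 and 1536.0 in Stat3Δ/Δ pools, against 757.4, 672.6 and 1365.9 in control pools, and the groups did not overlap (adjusted p = 0.490 by limma). Its log2 fold change was 0.92 without control pool 2.

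Of 24 listed NK and cytotoxic effector genes, 21 were measured, and 19 lay above 0 with a median log2 fold change of 0.75. None passed the FDR, 5 were higher when the FDR was left out (2.19% of all genes by their brightest probe sets), and 4 had groups that did not overlap (4.25% of all genes). The median was 0.63 without control pool 2, 0.34 without control pool 1 and 0.18 among the shared-number arrays, and control pool 1 was the lowest array in 16 of the 21. Klrk1, the activating receptor NKG2D, gave 1.93 (SE 0.52, adjusted p = 0.476 by limma), from signals of 741.6, 463.6 and 770.1 in Stat3Δ/Δ pools, against 18.9, 83.7 and 363.2 in control pools. Only control pool 3 lay above the 95th percentile of the olfactory receptors among its control arrays, as for Klrc1, so the size of both changes depends on the pseudocount. Klrk1 gave 1.84 without control pool 2 and 0.61 among the shared-number arrays. Klrc1 gave 1.63, or 1.43 without control pool 2 and 0.41 among the shared-number arrays. Fasl gave 1.40, or 1.39 without control pool 2, 0.68 without control pool 1 and -0.061 among the shared-number arrays. The lowest were Ncr1 with -0.43, Sh2d1a with -0.22 and Gzmk with 0.0035. Control pool 2 was the highest array in 4 of the 21 (17.5% of all genes), by at most 0.92 log2 units, for Sh2d1a. It was never highest by 1 log2 unit, which 0.704% of all genes were. In this respect the list was near all genes, and it differed from the CD3 chains as Nkg7 and Gzma did.

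Of 10 listed T lineage transcription factors 8 were measured, with a median log2 fold change of 0.32 and none called by limma with or without the FDR. The median was 0.42 without control pool 2, 0.011 without control pool 1 and -0.078 among the shared-number arrays. Eomes, a factor of NK and CD8 T cells, gave signals of 1193.7, 1270.9 and 1299.2 in Stat3Δ/Δ pools, against 55.6, 574.9 and 1042.6 in control pools. The groups did not overlap, the log2 fold change was 1.504 (SE 0.66, adjusted p = 0.596 by limma), and it was 1.77 without control pool 2, 0.62 without control pool 1 and 0.25 among the shared-number arrays. Gata3 and Runx3 followed with 0.80 and 0.57, or -0.16 and 0.093 among the shared-number arrays, and Foxp3, Zbtb7b and Bcl11b were lowest with -0.19, -0.18 and 0.057. Bcl11b, a factor required for T cell commitment, was the only one of the 8 that exceeded the other arrays in control pool 2 by at least 1 log2 unit, with 3239.1 there and between 221.9 and 1249.8 elsewhere. Its fold change was 0.99 without control pool 2, -0.65 without control pool 1 and 0.72 among the shared-number arrays.

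Of 12 listed homing receptors 10 were measured, with a median of 0.54, none past the FDR in limma and 3 higher without it (2.19% of all genes). The median was 0.72 without control pool 2, 0.32 without control pool 1 and 0.17 among the shared-number arrays. Cxcr6, the receptor for CXCL16 on activated T and NK cells, had signals of 1372.2, 1469.5 and 1336.6 in Stat3Δ/Δ pools, against 363.1, 386.2 and 764.7 in control pools. Its groups did not overlap, and its log2 fold change of 1.33 (SE 0.28, adjusted p = 0.447 by limma) was 1.19 without control pool 2 and 0.88 among the shared-number arrays. Ccr7 and Itga4 had 0.81 and 0.76, or 0.49 and 0.33 among the shared-number arrays, and the lowest were Ccr4 with -0.61 and Ccr9 with -0.49. Ccr9, a receptor of gut-homing T cells and thymocytes, had 7259.5 in control pool 2 and between 73.5 and 1228.9 elsewhere. Its fold change was 0.86 without control pool 2, -1.88 without control pool 1 and -0.71 among the shared-number arrays.

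Control pool 2 was the highest array in 1 of 11 measured B cell markers, in 0 of 12 alveolar macrophage markers, in 1 of 5 dendritic cell markers and in 0 of 8 neutrophil markers, and in none of them by 1 log2 unit. Over all genes these shares were 17.5% and 0.704%. The median log2 fold change was 0.21 over the B cell markers. It was 0.68 over the macrophage, 0.62 over the dendritic cell and 0.43 over the neutrophil markers, and 0.39 over the 12 pan-leukocyte genes, with none past the FDR in limma and between 1 and 4 higher without it in each (2.19% of all genes). Without control pool 2 the median was 0.28 over the B cell, 0.71 over the macrophage, 0.60 over the dendritic cell and 0.38 over the neutrophil markers, and 0.69 over the pan-leukocyte genes. Without control pool 1 the pan-leukocyte median was 0.085 and the macrophage median 0.45, and among the shared-number arrays these were 0.16 and 0.57 and the neutrophil median 0.1995. The summed macrophage signal was 100016.9, 176454.8 and 99036.2 in Stat3Δ/Δ pools, against 60420.7, 79479.5 and 97194.4 in control pools. The summed member signal, by brightest probe sets, was 11473.7, 16470.7 and 18863.2 in Stat3Δ/Δ pools, against 5063.6, 37006.7 and 13086.9 in control pools. Both sums were lowest in control pool 1, and only the member sum was highest in control pool 2. The part of the difference in leukocyte content between arrays in the members' fold changes was not tested.

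**Figure D3:**
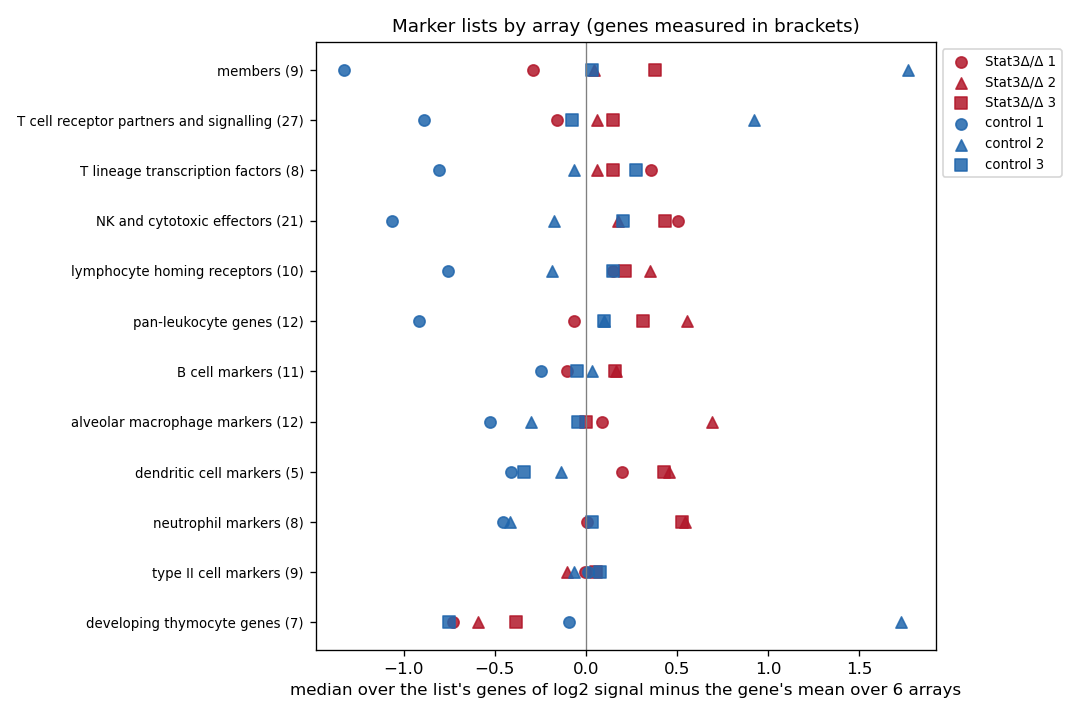
Median over each list's measured genes of the log2 signal minus the gene's mean over the 6 arrays, in log2 units, by array (red, Stat3Δ/Δ; blue, control; the shape gives the pool). Control pool 2 lies at 1.77 for the members and at 0.92 for the T cell receptor partners, and control pool 1 at -1.33 and -0.89, while control pool 2 lies at -0.17 for the NK and cytotoxic list and at 0.097 for the pan-leukocyte genes.

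Because Cd8a, Cd8b1 and Ccr9 were so high in control pool 2, 7 genes made by immature lymphocytes were listed too, after their values had been seen. Rag1, which cuts antigen receptor genes for their rearrangement and is silent in most mature T and B cells, gave signals of 146.3, 119.2 and 271.0 in Stat3Δ/Δ pools, against 6.3, 23197.5 and 28.5 in control pools. Dntt, the terminal transferase that adds bases at the joints, gave on its brightest probe set 9.4, 16.2 and 20.5 in Stat3Δ/Δ pools, against 20.3, 10587.8 and 34.0 in control pools. On the other 5 arrays both genes were near or below the 95th percentile of the olfactory receptors, so no fold is given for them. By brightest probe sets, control pool 2 was highest in 5 of the 7 genes (Rag1, Rag2, Dntt, Arpp21 and Endou). It was so by at least 1 log2 unit in 4, and Ptcra and Cd1d1 were not among them. Over all genes these shares were 17.5% and 0.704%. The 7 genes were listed after their signals in this array were seen, so the counts only describe it. The dimmer Cd1d1 probe set was highest there, with 1607.3 against at most 1367.5 elsewhere. Some dimmer Arpp21 probe sets were highest on other arrays. Ptcra, the invariant partner of the early receptor beta chain, had 366.5, 244.9 and 284.9 in Stat3Δ/Δ pools, against 311.3, 195.1 and 187.1 in control pools. No cell of the thymus is named in the labels, and what control pool 2 held was not tested.

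The mean of the 9 genes' centred log2 signals over the 6 arrays was followed most closely by Mad2l1 (Pearson r = 0.998), Pcgf5 (0.991), Def6 (0.989), Agpat5 (0.987), Il16 (0.984) and Map4k1 (0.981). They ranked highest among 11703 other genes with a mean signal of at least the median. That mean joins Cd3d, Cd3e, Cd3g, Cd4 and Cd8a, which stood apart in control pool 2, with Cd2, Cd5, Nkg7 and Gzma, which did not. Single members can therefore differ from it. Il16 gave 1278.3, 1490.1 and 1818.4 in Stat3Δ/Δ pools, against 384.2, 4677.2 and 1186.7 in control pools, while Pcgf5 varied far less, between 1839.4 and 2765.0 over the 6 arrays. Without control pool 2 the 6 coefficients were between 0.951 and 0.996. These are descriptions over 6 arrays that share the same high and the same low array.

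**Figure D4:**
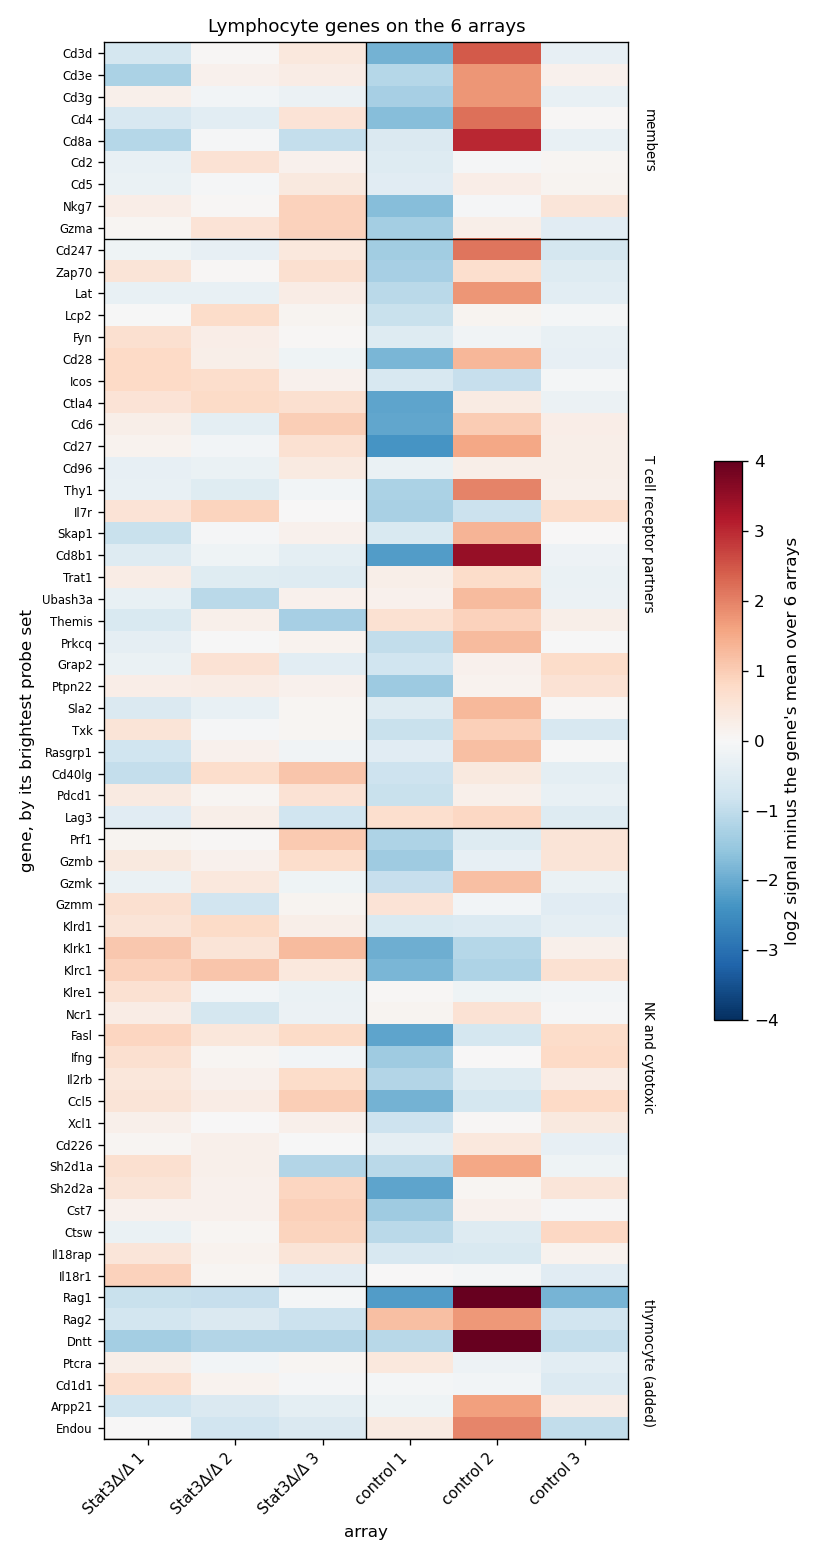
Log2 signal minus the gene's mean over the 6 arrays for the members, the receptor partners, the NK and cytotoxic genes and the added genes of immature lymphocytes, by brightest probe set; red is above and blue below the mean, and the colour scale ends at 4 log2 units. The control 2 column is red for Cd3d, Cd3e, Cd3g, Cd4 and Cd8a and darkest for Rag1 and Dntt, and the control 1 column is mostly blue. The cytotoxic block is mostly blue in control 1, with Gzmm above its mean. In control 2 that block is mostly pale, with Sh2d1a above and Klrk1 and Klrc1 below their means.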

How the data were processed

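Gene expression was measured in 3 Stat3Δ/Δ pools and 3 control pools of type II cells. The deposited values are linear signal intensities from the authors' run of Affymetrix MAS5, whose trimmed mean is 1500.0 on every array. The RMA values named in the methods were not used here. Pools were grouped by their titles. Of 45101 probe sets, 64 controls were left out. A pseudocount of 70.0, the 20th percentile over the table, went into each log2 value before quantile normalization. A group effect was fitted to 45037 probe sets with limma 3.58.1 (R 4.3.3) and Benjamini-Hochberg adjustment, and calls used the methods' thresholds (p at most 0.05, FDR at most 10%, fold at least 1.5). The calling steps were also run on simulated data with independent noise of equal spread in both groups. No array was made to stand apart there, so that run says nothing on outlying pools.

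Every probe set naming 1 member gene alone is reported. Of each other list up to 3 genes with the highest and 3 with the lowest fold change, by the probe set with the highest mean, are named, with the 6 genes most correlated with the members. Exceptions chosen after their values were seen are the genes of immature lymphocytes, the Ccr9 and Bcl11b signals by pool and the counts of arrays highest or lowest. The members and lists were chosen with earlier results of these data known. Where nothing says that pools came from separate litters, p-values measure the spread between these pools, and precision is limited by the number of arrays.

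Alternatives changed the pseudocount, the normalization, a filter on low signal, the variance model, array weights, blocks on pool number and title number, the methods' t-test and the arrays used; fits against control pool 3 only were added after seeing the data. Promoters are RefSeq, GRCm38.p6, and matched by symbol. Tables and figures used Python 3.11.15, pandas 2.3.3, numpy 2.4.6 and matplotlib 3.10.9.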

Additional observations from a re-analysis of the deposited data

How the results depend on the processing

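Under every alternative run, limma or the methods' t-test called 0 of the 14 member probe sets at an FDR of at most 10%, and the lowest adjusted p of a member was 0.388, with array weights. The count of 1 called higher without the FDR, Gzma, was 0 with array weights, with arrays centred on their medians, with a pseudocount at the 5th percentile, with the title number as a fixed block, within the shared title number, against control pool 3 only and by the methods' t-test, and 0 to 2 when a pool was left out. The count called lower, 0, was 0 to 1 when a pool was left out. The pool numbers did not pair the arrays, since same-numbered pools had deviations that correlated at -0.084, -0.0088 and -0.24. With the replicate block 3 member probe sets were called lower without the FDR and 0 with it. The share of all probe sets called lower in that fit was not counted, so those 3 have no background to be read against. Outside leaving out each pool in turn, 11 of 152 fold changes of single probe sets took the other sign. These settings include the fits within the shared number and against control pool 3 only, which also use fewer arrays. The replicate block, the variance model and the filter on low signal leave each fold change unchanged, so no sign could turn there. The title number block repeats the fold changes of the shared-number arrays. With the title number as a fixed block and within the shared number alike the turned signs were Cd3g with 0.33, Cd5 with -0.27 and Nkg7 with -0.32. Against control pool 3 only they were Cd3d with 0.24, Cd3g with 0.23, Cd5 with -0.094 and Nkg7 with -0.057, and with array weights Cd5 with -0.047. Leaving out each pool in turn gave -0.78 to 0.65 for the median of the members, -1.13 to 1.01 for Cd3d, -1.24 to 0.20 for Cd3e, -0.78 to 0.75 for Cd3g, -1.28 to 0.65 for Cd4 1419696_at, -0.17 to 0.20 for Cd5, -0.47 to 0.044 for Cd8a 1440164_x_at and -1.43 to 0.012 for Cd8a 1444078_at. Control pools 1 and 2 gave the ends of these ranges. Without Stat3Δ/Δ pool 1 the median was 0.16 and Cd3d 0.16, and without Stat3Δ/Δ pool 3 Cd5 was -0.12. With the mean of all probe sets of a gene, in place of the brightest, the median was 0.054. The cause of these changes was not tested. Signals near those of olfactory receptor genes, as for 2 of the 14 probe sets by their means, limit what can be read from them. The same holds outside control pool 2 for Cd8a 1451673_at and 1425335_at, which passed that level on 4 arrays each.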

Other observations

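Uhrf1, Rrm2, Cdca5, Cdc6 and Pbk were picked, after their values were seen, from the 30 genes with the largest gap between control pool 2 and the highest other array, and how many genes of their kinds stood apart was not counted. Uhrf1, which maintains DNA methylation at replication forks, gave 488.1, 513.0 and 573.4 in Stat3Δ/Δ pools, against 399.2, 3542.8 and 581.6 in control pools. Rrm2, a subunit of ribonucleotide reductase, gave 1435.7, 1647.5 and 1345.0 in Stat3Δ/Δ pools, against 907.4, 5393.5 and 1279.8 in control pools. Cdca5, which holds sister chromatids together, gave 300.6, 568.9 and 522.8 in Stat3Δ/Δ pools, against 317.7, 2179.8 and 531.3 in control pools. Cdc6 and Pbk were also highest there, with 1382.5 and 1880.5 in control pool 2 and at most 359.6 and 610.7 elsewhere.

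From the remaining genes among these 30, Trbv1, Myb and Thy1 were picked after their values were seen, and others there were Syt13, Tubb2b, Dpt and Insl5. Trbv1, a variable segment of the T cell receptor beta chain, had 4372.9, 3253.0 and 4368.2 in Stat3Δ/Δ pools, against 913.9, 25305.0 and 2785.0 in control pools. Myb, a transcription factor of early blood cells and thymocytes, had 1809.1, 1382.8 and 1065.9 in Stat3Δ/Δ pools, against 771.1, 7746.6 and 2313.6 in control pools. Thy1, a surface protein of T cells, had 1615.0, 1382.3 and 1735.8 in Stat3Δ/Δ pools, against 672.1, 7838.9 and 2249.2 in control pools. Control pool 1 was the lowest array in Trbv1, Myb and Thy1, but not in all of the 30, as Dntt and Cd8a were lowest in Stat3Δ/Δ pool 1.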
